A study of Homo sapiens with 8 samples.

Results

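The alanine tRNAs are the 3 nuclear-encoded isoacceptors that carry alanine to the ribosome, tRNA-Ala-AGC, tRNA-Ala-CGC and tRNA-Ala-TGC, named by their anticodons. They were chosen by name, as every sense-strand site on a tRNA-Ala reference in the 8 libraries, and no measured value entered the choice. They hold 875 of 16258 sites and 25 of 254 references. The AGC isoacceptor has 14 references and 466 sites, CGC has 4 references and 165 sites, and TGC has 7 references and 244 sites. These 25 references name 32 genes, because genes of identical or near-identical sequence share a reference.

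The libraries are iCLIP, a method that recovers the RNA held by a tagged protein and counts, nucleotide by nucleotide, where cDNA synthesis stopped. They came from Flp-In T-Rex 293 cells, a human embryonic kidney line, with 3xFLAG-DUS1L or 3xFLAG-DUS2L switched on by 1 µg/mL tetracycline for 12 h. The medium was then exchanged for one with tetracycline and either no analogue (untreated) or 100 µM 5-chlorouridine (5-ClUrd), a uridine analogue, for another 12 h. Each of the 4 groups, DUS1L untreated, DUS1L with 5-ClUrd, DUS2L untreated and DUS2L with 5-ClUrd, had 2 libraries, described as biological replicates. Every group thus expressed a tagged enzyme and received tetracycline, and no group lacked a tagged protein.

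DUS1L and DUS2L are dihydrouridine synthases, which reduce a uridine of tRNA to dihydrouridine, the base that gives the D loop its name. Their yeast relatives act at the D-loop uridines of standard numbers 16 and 17 (Dus1) and 20 (Dus2). A uridine carrying a halogen at carbon 5 can be bound covalently by enzymes that act on uridine. Alanine tRNAs carry other known modifications as well. ADAT2 and ADAT3 deaminate the first anticodon base of tRNA-Ala-AGC to inosine, and the adenosine 3′ of the anticodon becomes 1-methylinosine through ADAT1 and a methyltransferase. TRMT1 methylates the guanosine of standard number 26, at the junction of the D and anticodon stems, and TRMT6 with TRMT61A methylates the adenosine of standard number 58 in the T loop.

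The sequence of 1 reference is shown to place the counts on the molecule. It was read from a RefSeq promoter window (GRCh38.p14) as the tRNA gene TRA-AGC2-2, an exon of 72 nt at chr6:28863685-28863756 on the minus strand. Its reference also names 2 further AGC genes. Of the 32 named genes, 29 matched a RefSeq symbol, and 22 of these lie on chromosome 6. In the first line the capitals mark the anticodon, at positions 33 to 35. In each of the other lines they mark the positions with the most counts on this reference in that group, with the 2 libraries summed for display. These are 8 positions, or 5 in DUS2L untreated, where all further positions tie at 1 count or have none (772 counts in DUS1L untreated, 31665 in DUS1L with 5-ClUrd, 68 in DUS2L untreated and 1564 in DUS2L with 5-ClUrd).
anticodon: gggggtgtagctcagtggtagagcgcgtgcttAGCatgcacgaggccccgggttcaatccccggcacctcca
DUS1L untreated: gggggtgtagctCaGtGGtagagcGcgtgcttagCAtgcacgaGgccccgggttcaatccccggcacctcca
DUS1L with 5-ClUrd: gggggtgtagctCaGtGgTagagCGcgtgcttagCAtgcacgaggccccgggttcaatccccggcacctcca
DUS2L untreated: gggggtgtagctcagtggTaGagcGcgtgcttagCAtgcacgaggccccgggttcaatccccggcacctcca
DUS2L with 5-ClUrd: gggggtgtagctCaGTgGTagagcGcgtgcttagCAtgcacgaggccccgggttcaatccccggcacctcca

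Positions run from 1 at the 5′ terminus of each reference. The D loop of this tRNA lacks the base of standard number 17. The D-loop T at position 16 therefore has standard number 16, the invariant GG lies at positions 17 and 18, and the D-loop T at position 19 has standard number 20. From there on the standard number is the position plus 1, so that the G at position 25, the A at position 36 and the A at position 57 have standard numbers 26, 37 and 58. Position 36, the A just 3′ of the anticodon, and position 25 stood in capitals in all 4 groups. Position 36 held 58% and 26.7% of this reference's counts in the libraries of DUS1L untreated and 6.04% and 7.25% in DUS1L with 5-ClUrd. It held 69.8% and 56% in DUS2L untreated, of 43 and 25 counts, and 50.9% and 50.6% in DUS2L with 5-ClUrd. Both treated DUS1L libraries were thus below all others. Position 36 was there the highest alanine site, with 1061 and 1021 counts, where the highest site of any RNA held 1269 and 1061. Whether an upper limit on site counts lowers this share was not tested. Of the counts in treated DUS1L libraries, 19.4% and 19.5% lay on one of the 13 T. In treated DUS2L libraries 7.26% and 6.03% lay on a T, and 59.3% and 56.0% lay 1 nt before a T, most of it at position 36. These bases and standard numbers hold for this reference. In sums over the references of an isoacceptor, positions are given as numbers, and their base was not read. Sequences of the other references were not used here.

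The libraries held between 7369 and 824657 sense counts. The lowest was replicate 2 of DUS1L untreated, which had 714 sites in all against 4034 to 9176 in the other 7, and the DUS1L changes of isoacceptors, the numbers of rising positions and references, and the named ones that rose in DUS1L scaled to all sense counts are also given without it. Alanine tRNAs contributed 3691 and 352 counts in the DUS1L untreated libraries and 98877 and 73821 in those with 5-ClUrd. For DUS2L they contributed 402 and 567 counts untreated and 10070 and 8951 with 5-ClUrd. Antisense counts were at most 0.248% of alanine counts in any library. Replicates of every group differed by more than counting noise over alanine sites (chi-square per degree of freedom between 2.58 and 34.8), so each library was kept as a replicate.

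All 3 isoacceptors took a larger share of a library's sense counts in every 5-ClUrd library than in either untreated library of the same enzyme. Together they made up 2.56% and 4.78% of sense counts in DUS1L untreated (mean 3.67% ± 1.57, SD, n = 2) and 12.0% and 13.6% with 5-ClUrd (12.8% ± 1.14). In DUS2L they made up 0.309% and 0.330% untreated (0.319% ± 0.0144) and 2.72% and 2.47% with 5-ClUrd (2.59% ± 0.176). Alanine tRNA was thus a larger share of the DUS1L libraries than of the DUS2L libraries in either condition. With 2 libraries against 2, an exact two-sided permutation test cannot give a p below 0.333, which is the value it gave for each of these shares. DUS1L and DUS2L site files carry different file-type names, and enzyme and the making of the files cannot be told apart in any comparison between them. In such bulk libraries a larger share of counts cannot be told apart from a smaller number of counts on other RNAs.

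tRNA-Ala-AGC, which decodes through inosine at the wobble position, was the isoacceptor with the most counts in every group. It held 1.78% and 2.71% of sense counts in DUS1L untreated and 7.32% and 8.01% with 5-ClUrd. In DUS2L it held 0.267% and 0.277% untreated and 1.92% and 1.65% with 5-ClUrd. It moved from rank 12 to rank 3 of 55 RNA families by mean share in DUS1L and from rank 39 to rank 23 in DUS2L. With edgeR's quasi-likelihood test and Benjamini-Hochberg adjustment over all families, it rose in DUS1L by 1.78 ± 0.31 (log2, SE, adjusted p = 0.0243) and in DUS2L by 2.72 ± 0.21 (adjusted p = 3.91e-05).

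tRNA-Ala-CGC, whose 4 references are the fewest of the 3, had the lowest share of the 3 in every untreated library. Its shares were 0.227% and 0.516% in DUS1L untreated and 2.32% and 2.44% with 5-ClUrd. In DUS2L they were 0.0154% and 0.0186% untreated, from 20 and 32 counts, and 0.391% and 0.447% with 5-ClUrd. It rose by 2.73 ± 0.70 in DUS1L (log2, edgeR adjusted p = 0.0347) and by 4.61 ± 0.28 in DUS2L (edgeR adjusted p = 2.15e-05), the highest fitted change of the 3 isoacceptors in both enzymes.

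tRNA-Ala-TGC held 0.554% and 1.55% of sense counts in DUS1L untreated and 2.35% and 3.15% with 5-ClUrd. In DUS2L it held 0.0269% and 0.0337% untreated and 0.403% and 0.364% with 5-ClUrd. Its change in DUS1L, 1.41 ± 0.67 (log2), did not pass the test (edgeR adjusted p = 0.138), and it rose in DUS2L by 3.65 ± 0.27 (edgeR adjusted p = 3.91e-05). The untreated DUS1L libraries lay further apart for this isoacceptor than the treated ones (mean 1.05% ± 0.702 against 2.75% ± 0.567).

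**Figure D1:**
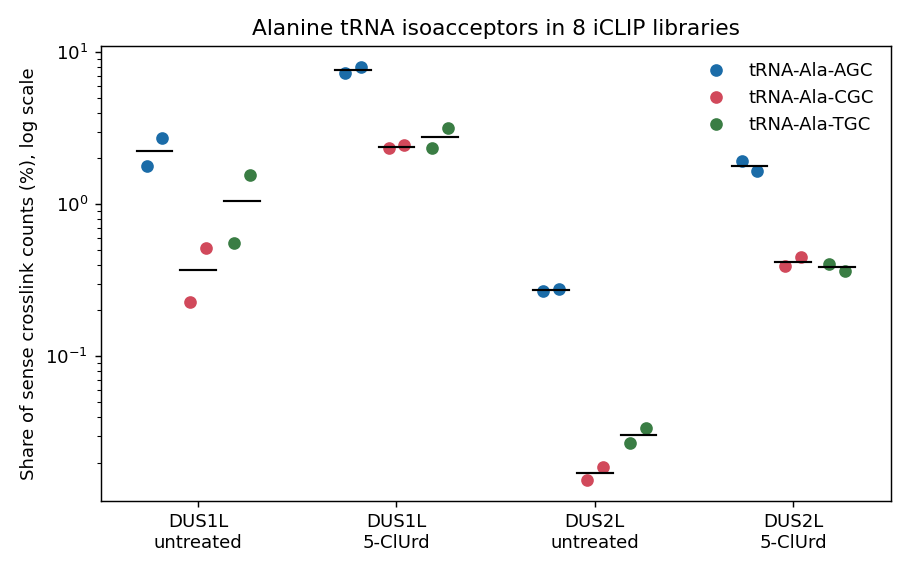
The share of sense counts (percent, log scale) is plotted for each alanine isoacceptor in each of the 8 libraries, by group. Points are libraries and bars are group means; the 5-ClUrd points lie above the untreated points of the same enzyme for all 3 isoacceptors, and DUS2L untreated is lowest, with means of 0.272% (AGC), 0.0170% (CGC) and 0.0303% (TGC).

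The counts of called isoacceptors have to be read against the other families. In DUS1L, 2 of 3 alanine isoacceptors rose, where 22.6% of the 53 families tested rose and 1.89% fell. In DUS2L, 3 of 3 rose, where 52.7% of 55 families rose and 23.6% fell. The median log2 change over all families was 1.35 in DUS1L and 0.86 in DUS2L, so that AGC lay 0.42, CGC 1.38 and TGC 0.06 above the median in DUS1L. In DUS2L they lay 1.86, 3.75 and 2.80 above it. Among the families with A as the first anticodon base (tRNA-Ala-AGC, Arg-ACG, Ile-AAT, Leu-AAG, Pro-AGG, Ser-AGA, Thr-AGT and Val-AAC), 3 of 7 tested rose in DUS1L. In DUS2L, 5 of these 8 rose and 1 fell. The 47 tRNA families other than alanine had 26 rises and 9 falls in DUS2L, and 45 of them had 10 rises and 1 fall in DUS1L. Of the 5 rRNA families, 4 fell in DUS2L, with a list median of -2.01.

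Other scalings moved the whole set of families. With TMM factors the median change was 0.32 in DUS1L and 0.21 in DUS2L, and the split of higher against lower families went from 12 and 1 to 2 and 8 in DUS1L, and from 29 and 13 to 19 and 21 in DUS2L. The DUS2L rises of all 3 alanine isoacceptors passed the test under every alternative run. The DUS1L calls ended for AGC (log2 0.75, adjusted p = 0.272) and CGC (1.71, adjusted p = 0.108) with TMM factors, and without either of the treated DUS1L libraries. Without replicate 2 of DUS1L untreated, the DUS1L changes were 2.11 for AGC, 3.39 for CGC and 2.31 for TGC, and all 3 passed the test.

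The response to 5-ClUrd was larger in DUS2L by fitted value for each isoacceptor, and none of the 3 differences passed the test in the fit of all 8 libraries. The DUS2L change minus the DUS1L change was 0.94 ± 0.42 for AGC (log2, SE, edgeR adjusted p = 0.120), 1.85 ± 0.61 for CGC (edgeR adjusted p = 0.0508) and 2.23 ± 0.72 for TGC (edgeR adjusted p = 0.0508). An unadjusted p under 0.05 was reached by 2 of the 3, and the Wald test of DESeq2 called TGC alone. Over all families 10.9% were higher and 18.2% lower in this comparison, with a median of -0.31. Without replicate 1 of DUS1L untreated all 3 differences passed the test.

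Levels differed between the enzymes in both conditions. With 5-ClUrd, the DUS2L libraries held less than the DUS1L libraries of AGC (log2 -2.10 ± 0.31, edgeR adjusted p = 0.000601), CGC (-2.51 ± 0.42, edgeR adjusted p = 0.00125) and TGC (-2.84 ± 0.52, edgeR adjusted p = 0.00196). In untreated libraries the gaps were -3.04 ± 0.32, -4.36 ± 0.49 and -5.07 ± 0.59, with adjusted p between 7.06e-05 and 0.000116. Without replicate 2 of DUS1L untreated they were -2.71, -3.73 and -4.18, and all 3 passed the test. All 3 isoacceptors were thus lower in DUS2L in both conditions, where 27.3% (with 5-ClUrd) and 41.8% (untreated) of all families were lower.

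CGC made up a larger part of the alanine counts with 5-ClUrd in both enzymes. AGC made up 85.2% ± 1.55 of alanine counts in DUS2L untreated and 68.9% ± 2.59 with 5-ClUrd, while CGC went from 5.31% ± 0.473 to 16.3% ± 2.64 and TGC from 9.47% ± 1.08 to 14.8% ± 0.0464. The DUS2L libraries did not overlap between conditions in any of these 3 shares. In DUS1L, CGC went from 9.83% ± 1.37 to 18.7% ± 1.01 without overlap. AGC (63.2% ± 8.96 and 60.0% ± 1.5) and TGC (27% ± 7.59 and 21.4% ± 2.52) overlapped between conditions in DUS1L.

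Along the molecule, DUS1L libraries with 5-ClUrd had most of their alanine counts in the D stem and loop (positions 10 to 25). DUS2L libraries had the highest share of their summed alanine counts in the anticodon loop (positions 32 to 38). Here and below, the D stem and loop include position 25. On the printed reference this position has standard number 26, at the junction of the D and anticodon stems. On references not of 73 nt by RefSeq length, position 25 held 11.9% and 12.5% of counts in treated DUS1L libraries. In treated DUS2L libraries it held 15.5% and 7.71%. The D stem and loop held 15.4% and 42.9% of alanine counts in DUS1L untreated and 63.2% and 65.2% with 5-ClUrd. In DUS2L it held 11.4% and 12.3% untreated and 24.9% and 24.5% with 5-ClUrd. The treated libraries lay above the untreated ones in both enzymes, and the 2 untreated DUS1L libraries lay far apart. The D loop alone (positions 14 to 21) held 35.1% and 35.3% in treated DUS1L libraries against 9.96% and 12.4% in treated DUS2L libraries.

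The anticodon loop held 65.4% and 19% of alanine counts in DUS1L untreated and 17.6% and 16.7% with 5-ClUrd. In DUS2L it held 57% and 49.9% untreated and 42.2% and 38.6% with 5-ClUrd. Summed over the isoacceptors, its share was lower in every 5-ClUrd library. In DUS1L it dropped by 25.1 percentage points with all libraries and by 1.90 without replicate 1 of DUS1L untreated. For AGC alone the conditions did not overlap in either enzyme. CGC and TGC overlapped in both enzymes. In DUS1L untreated they held 70.6% and 2.63% (CGC) and 66.3% and 6.14% (TGC), against 11.7% and 9.22%, and 13.4% and 11.5%, with 5-ClUrd. The TGC mean in DUS2L was 25.2% untreated and 24.9% with 5-ClUrd. The first 9 positions, the 5′ strand of the acceptor stem with its neighbours, held between 12.7% and 16.3% in the DUS2L libraries and between 0.163% and 5.85% in the DUS1L libraries. No alanine reference had a count beyond position 61. Counts on 4 references ended at position 32, on 5 at position 45 and on 5 at position 60.

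The 3 isoacceptors differed from each other in this. With 5-ClUrd, the D stem and loop held 56.6% ± 0.620 of AGC counts, 75.7% ± 2.64 of CGC counts and 75.6% ± 1.31 of TGC counts in DUS1L. In DUS2L it held 15.8% ± 2.82 of AGC, 39.8% ± 7.41 of CGC and 48.8% ± 0.860 of TGC counts. AGC thus had the lowest D-arm share in both enzymes, in every treated library. Single references within an isoacceptor varied as widely. With the treated DUS2L libraries summed, the share was 88.9% on tRNA-Ala-CGC-1-1, 91.3% on CGC-2-1, 91.9% on the shared reference of TGC-3-1 and 3-2 and 88.3% on TGC-4-1. On TGC-1-1 and TGC-5-1 it was 22.2% and 17.5%, between the AGC references AGC-1-1 (14.8%) and AGC-4-1 (30.0%). The CGC-1-1, CGC-2-1 and TGC-3 references are among the 4 with no count beyond position 32.

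**Figure D2:**
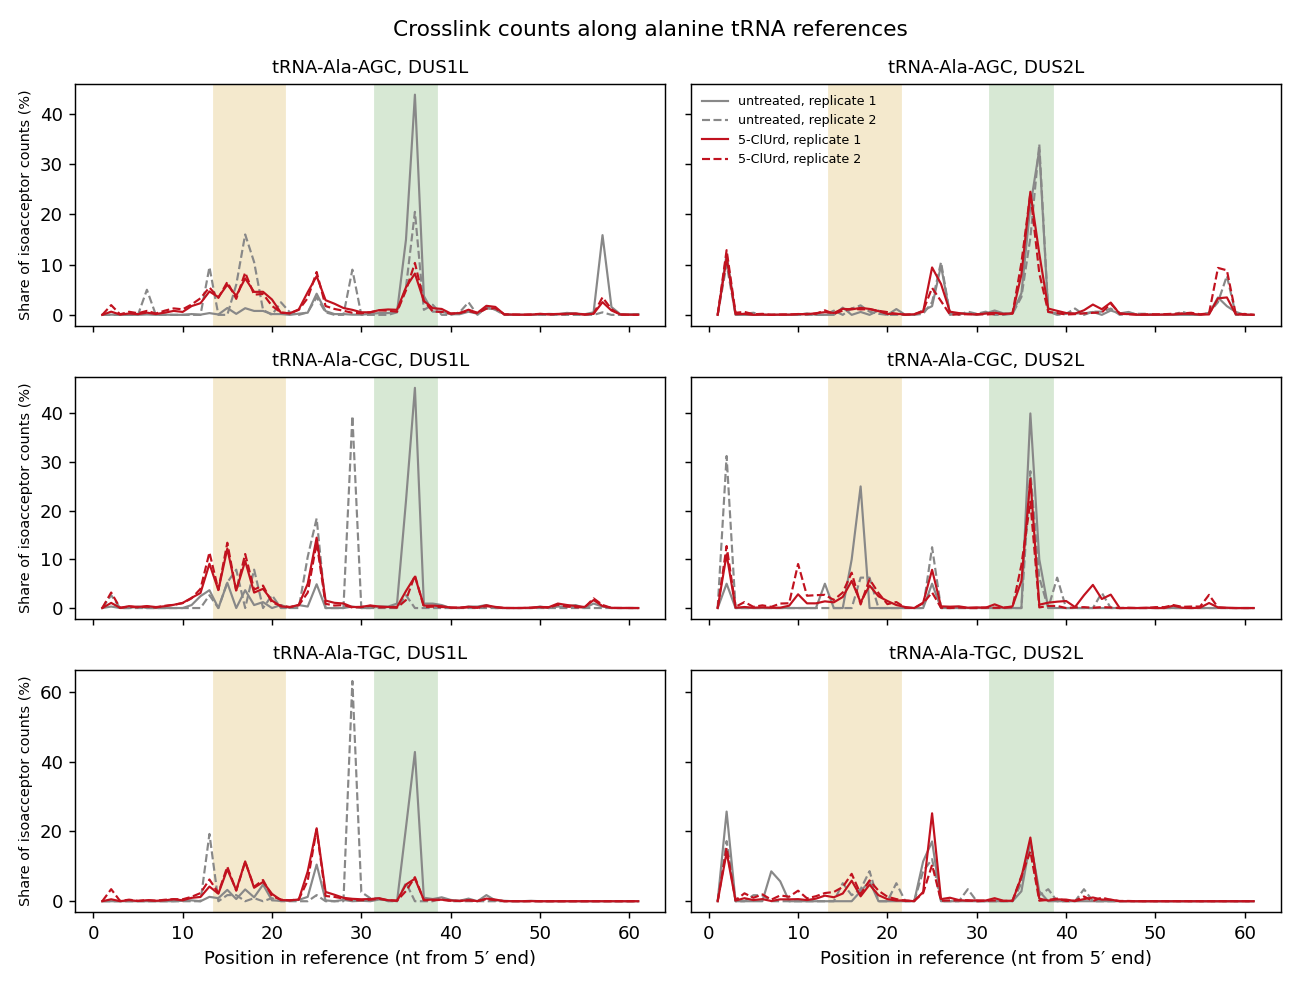
The share of each isoacceptor's counts (percent, vertical axis) is plotted at each position of the reference (nt from the 5′ end) for each group, DUS1L on the left and DUS2L on the right; shaded bands mark the D loop and the anticodon loop. In treated DUS1L libraries counts spread over the D stem and loop with a peak at position 25, and in DUS2L libraries the anticodon loop at positions 36 and 37 stands highest for AGC.

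At single positions, counts of one position were summed over an isoacceptor's references and tested beside those of all other families. In DUS1L, 81 of 158 alanine positions tested rose with 5-ClUrd, against 26.8% of all 2132 positions tested. By isoacceptor these were 30 of 60 AGC, 28 of 54 CGC and 23 of 44 TGC positions. None fell by edgeR's quasi-likelihood test, where 1.5% of all positions fell; 2 alanine positions had an unadjusted p under 0.05 and a lower value, and the DESeq2 Wald test found 1 lower. In DUS2L, 61 of 117 alanine positions rose, against 15.5% of all 3582 positions tested, as 26 of 52 AGC, 20 of 32 CGC and 15 of 33 TGC positions. None fell in DUS2L by edgeR or DESeq2, nor at an unadjusted p under 0.05, where 23.8% of all positions fell. The untreated DUS2L libraries held 20 and 32 CGC counts and 35 and 58 TGC counts. In either enzyme, positions could pass the filter of 10 counts through treated libraries alone, and a fall could not be seen there. The absence of falls is therefore no result for such positions, and the rises include that of the whole isoacceptor. The median log2 change of the alanine positions tested was 3.74 in DUS1L and 4.33 in DUS2L, against 2.81 and -0.56 over all positions. Without either untreated DUS2L library no DUS2L alanine position passed the adjusted test (52 and 46 had an unadjusted p under 0.05). Without replicate 1 of DUS1L untreated 18 rose in DUS1L, and 27 and 41 rose without replicate 1 or replicate 2 of DUS1L with 5-ClUrd. Without replicate 2 of DUS1L untreated 100 rose.

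By region, the rises in DUS1L covered 18 of 24 alanine positions of the 5′ end, where 42.1% of the positions of all tRNA families rose, and 34 of 48 of the D stem and loop, where 38% rose. They covered 6 of 6 at positions 26 and 27, the hinge by plain position (31.9% over all tRNA families), and 12 of 48 of the anticodon arm (27%). In DUS2L the rises covered 7 of 16 positions of the 5′ end (54.2%), 33 of 43 of the D stem and loop (35.9%), 2 of 4 of the hinge (30%) and 12 of 33 of the anticodon arm (15.8%). Of the anticodon loop 3 of 21 rose in DUS1L and 7 of 17 in DUS2L, against 27.7% and 15.7% over all tRNA families. The DUS1L untreated libraries held 6 and 11 alanine counts at the 5′ end and 25 and 1 at the hinge. The DUS2L untreated libraries held 46 and 70 in the D stem and loop. Positions there could pass the count filter through treated libraries alone, and the rises of such positions are no result about a region.

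Scaled to the total of its own isoacceptor, so that a change is one within the isoacceptor, 9 positions were higher and 3 lower in DUS1L, against 6.52% and 1.17% of all positions. By region the higher ones were 4 of 24 positions of the 5′ end, 4 of 48 of the D stem and loop and 1 of 6 of the hinge. The 9 were AGC positions 2, 4, 9, 10, 12 and 14 and TGC positions 2, 12 and 27, and the 3 were AGC position 61, CGC position 29 and TGC position 29. Over the whole 5′ end the DUS1L untreated libraries held 4 and 10 AGC counts and 0 and 0 TGC counts. At the hinge they held 2 and 0 TGC counts. The higher positions of these regions thus rest on few untreated counts or none. Position 29 of TGC had 72 of its counts in replicate 2 of DUS1L untreated (63.2% of that library's TGC counts) and 0 in replicate 1, and CGC position 29 had 15 and 1. In DUS2L, AGC position 25 was higher within its isoacceptor (log2 1.78 ± 0.57, edgeR adjusted p = 0.0257), and AGC position 37 (-1.71 ± 0.38, edgeR adjusted p = 0.000441) and CGC position 17 (-3.92 ± 1.30, edgeR adjusted p = 0.0356) were lower. Over all positions 5.83% were higher and 3.02% lower in that comparison. These single positions are named because the counts are small, and were chosen after their values were seen. In DUS2L untreated, AGC position 37 had 113 and 156 counts on references of 73 nt by RefSeq length. It had 1 and 6 on the other AGC references. Position 25 had 0 and 1 against 6 and 11. The 73 nt references went from 54.2% and 60.1% of alanine counts to 25.7% and 25.9% with 5-ClUrd. How much of the changes at AGC positions 25 and 37 comes from this mix was not tested.

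The 10 positions with the highest treated share held 37.1% of treated alanine counts in DUS1L and 61.8% in DUS2L. For DUS1L they were AGC positions 13, 15, 17, 18, 19, 25, 35 and 36, CGC position 25 and TGC position 25. For DUS2L they were AGC positions 2, 25, 26, 35, 36, 37, 57 and 58, CGC position 36 and TGC position 25. The enzymes shared 4 of the 10, AGC positions 25, 35 and 36 and TGC position 25. The 5 DUS1L positions from 13 to 19 lie in and beside the D loop, and none of the DUS2L positions does.

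The D-loop positions of AGC had few untreated counts. Position 19, a T in the printed reference, had 20 and 2 counts in DUS1L untreated and 2769 and 1807 with 5-ClUrd (4.59% and 4.16% of AGC counts). In DUS2L it had 3 and 1 counts untreated and 53 and 48 with 5-ClUrd (0.744% and 0.799%). It rose in both enzymes, by 4.22 ± 1.19 in DUS1L (log2, edgeR adjusted p = 0.0264) and 3.28 ± 1.22 in DUS2L (edgeR adjusted p = 0.0235).

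Position 16, also a T in the printed reference, had 5 and 12 counts in DUS1L untreated and 2290 and 1384 with 5-ClUrd (3.80% and 3.18% of AGC counts). In DUS2L it had 0 and 6 untreated and 77 and 74 with 5-ClUrd (1.08% and 1.23%). It rose in DUS2L (log2 3.42 ± 1.15, edgeR adjusted p = 0.013), and its DUS1L change of 1.89 ± 1.41 did not pass the test (edgeR adjusted p = 0.282). The neighbouring positions 15 and 17 held more: with 5-ClUrd 5.99% and 6.53% of AGC counts at position 15 and 7.25% and 8.40% at position 17 in DUS1L, against 1.21% and 0.849%, and 1.39% and 1.08%, in DUS2L. Without replicate 2 of DUS1L untreated, the DUS1L changes were 4.59 at position 19 and 6.25 at position 16, and both passed the test (edgeR adjusted p = 0.000529). Without either treated DUS1L library neither did.

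Position 25 was high in both enzymes. In the printed reference it is the G of standard number 26, which TRMT1 methylates in many tRNAs. For AGC it had 108 and 7 counts in DUS1L untreated and 4648 and 3710 with 5-ClUrd, and 6 and 12 against 672 and 322 in DUS2L. It rose by 2.90 ± 0.94 (log2, edgeR adjusted p = 0.0377) in DUS1L and by 4.52 ± 0.70 (edgeR adjusted p = 1.45e-08) in DUS2L. For TGC it was the highest position of the treated DUS1L libraries, with 20.9% and 20.6% of TGC counts, and held 25.2% and 10.4% in the treated DUS2L libraries. TGC position 25 rose in DUS1L by 3.64 ± 1.02 (log2, edgeR adjusted p = 0.0262) and in DUS2L by 4.0 ± 0.88 (edgeR adjusted p = 0.00012). For CGC it held 14.5% and 13.5% of treated DUS1L counts and 7.86% and 3.20% of treated DUS2L counts, and passed the test in DUS2L (log2 3.77 ± 1.17, edgeR adjusted p = 0.00722) but not in DUS1L (2.91 ± 1.24, edgeR adjusted p = 0.0901). Without replicate 2 of DUS1L untreated the DUS1L changes at position 25 were 3.06 (AGC), 4.90 (CGC) and 3.29 (TGC), and all 3 passed the test. Without either treated DUS1L library none did.

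Position 36, beside the anticodon in the printed reference, held a large part of the untreated counts. For AGC it had 1124 and 41 counts in DUS1L untreated (43.8% and 20.5% of AGC counts) and 4957 and 4494 with 5-ClUrd (8.22% and 10.3%). Scaled to all sense counts its DUS1L change was 0.09 ± 0.76 (log2, edgeR adjusted p = 0.932). In DUS2L it had 75 and 73 counts untreated (21.6% and 15.3%) and 1745 and 1451 with 5-ClUrd (24.5% and 24.2%), a rise of 3.12 ± 0.37 (edgeR adjusted p = 3.9e-14). CGC position 36 rose in DUS2L by 4.14 ± 0.77 (log2, edgeR adjusted p = 4.01e-06), from 8 and 9 to 386 and 355 counts, and its DUS1L change of 1.38 ± 1.21 did not pass the test (edgeR adjusted p = 0.361). The neighbouring AGC position 35 also rose in DUS2L (3.92 ± 0.62, edgeR adjusted p = 2.03e-08) and had a DUS1L change of 0.91 ± 0.91 (edgeR adjusted p = 0.419).

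Other positions of the DUS2L list lay at the ends of the counted stretch. AGC position 2 had 42 and 48 counts untreated and 809 and 773 with 5-ClUrd in DUS2L, between 10.1% and 12.9% of AGC counts in all 4 libraries. In DUS1L it had 1 and 0 counts untreated and 383 and 843 with 5-ClUrd, at most 1.94% of AGC counts. AGC position 57, where the printed reference had no counts, rose in DUS2L (log2 3.75 ± 0.73, edgeR adjusted p = 1.02e-05), from 12 and 12 to 234 and 561 counts. In DUS1L untreated that position had 407 counts in replicate 1 and 1 in replicate 2, and its change did not pass the test (0.56 ± 1.15, edgeR adjusted p = 0.7). AGC position 26 had 34 and 50 counts untreated and 438 and 164 with 5-ClUrd in DUS2L.

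In DUS2L, AGC references of different lengths had their highest positions 1 nt apart. By the RefSeq lengths, 7 AGC references are 73 nt long. The 73 nt references took 54.2% and 60.1% of all alanine counts in DUS2L untreated and 25.7% and 25.9% with 5-ClUrd, against 0.852% to 4.15% in the 4 DUS1L libraries. The libraries of the enzymes did not overlap in this share. On the 73 nt references position 37 held 51.8% and 45.7% of counts in DUS2L untreated and 30.9% and 20.4% with 5-ClUrd. On the other AGC references it was position 36 that held 52.7% and 48.5%, and 36.7% and 37.8%. Position 26 had 15.6%, 14.7%, 16.2% and 6.73% of the 73 nt counts in the 4 DUS2L libraries, and position 25 had 4.65%, 8.09%, 14.8% and 8.71% of the counts on the other AGC references. In treated DUS1L libraries position 37 held 28.3% and 38.6% of the 73 nt counts, and on the other AGC references position 36 held 8.49% and 10.7%, close to the 8.06% and 8.93% at position 25. Without the 73 nt references the D stem and loop held 24.0% ± 1.41 of alanine counts in DUS2L untreated and 32.2% ± 0.123 with 5-ClUrd, and the anticodon loop 52.9% ± 2.83 and 44% ± 0.402. The length comparison was chosen after the values were seen.

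Values of single references are uncertain, because reads of near-identical references can be assigned to either. In DUS1L, 9 of 23 alanine references tested rose, against 33.8% of 225 references. In DUS2L, 17 of 23 rose, against 49.8% of 227. None fell by edgeR or DESeq2 or at an unadjusted p under 0.05 in either enzyme, where 4.89% and 11% of all references fell. Some passed the count filter only through treated libraries, such as tRNA-Ala-CGC-2-1 with 1 and 4 counts in DUS2L untreated. A fall could not be seen for these. Leaving out either treated DUS1L library left no DUS1L alanine reference past the test (1 and 2 had an unadjusted p under 0.05), and 17 passed without replicate 2 of DUS1L untreated. The shared reference of tRNA-Ala-AGC-8-2 and 8-1, of 73 nt, had 163 and 249 counts in DUS2L untreated and 1965 and 1811 with 5-ClUrd. It made up 42.2% ± 2.38 and 19.9% ± 0.508 of alanine counts in these groups and 1.93% in both DUS1L groups. It rose by 1.93 ± 0.34 in DUS2L (log2, edgeR adjusted p = 2.33e-07), and its DUS1L change of 1.96 ± 0.98 did not pass the test (edgeR adjusted p = 0.092).

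The reference whose sequence is printed above, shared by tRNA-Ala-AGC-2-1, 7-1 and 2-2, had 667 and 105 counts in DUS1L untreated and 17577 and 14088 with 5-ClUrd. In DUS2L it had 43 and 25 untreated and 868 and 696 with 5-ClUrd. It held 18.4% of alanine counts in DUS1L with 5-ClUrd on average, the most of any alanine reference there, and 24.0% in DUS1L untreated, against 7.55% and 8.20% in DUS2L. In replicate 1 of DUS1L untreated tRNA-Ala-AGC-4-1 had more counts, 753. The printed reference rose in DUS2L (log2 3.18 ± 0.50, edgeR adjusted p = 4.27e-09) and its DUS1L change of 1.35 did not pass the test (edgeR adjusted p = 0.054).

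Among the other named references, tRNA-Ala-AGC-4-1 made up 15% and 8.01% of alanine counts in DUS1L, untreated and with 5-ClUrd, and 7.54% and 16.4% in DUS2L. It rose in DUS2L by 4.13 ± 0.43 (log2, edgeR adjusted p = 2.69e-18) and its DUS1L change of 1.05 did not pass the test (edgeR adjusted p = 0.212). tRNA-Ala-CGC-4-1 rose in both enzymes, by 3.80 ± 0.86 in DUS1L (edgeR adjusted p = 0.000678) and 4.74 ± 0.57 in DUS2L (edgeR adjusted p = 1.73e-14). tRNA-Ala-AGC-1-1 (edgeR adjusted p = 0.0221) and tRNA-Ala-AGC-3-1 (edgeR adjusted p = 0.00205) also rose in DUS1L. Without replicate 2 of DUS1L untreated the DUS1L changes were 3.36 for CGC-4-1, 2.10 for AGC-1-1 and 3.11 for AGC-3-1, and these 3 still passed the test. tRNA-Ala-TGC-5-1, the TGC reference of highest mean share over the 8 libraries, rose in DUS2L by 3.47 ± 0.82 (edgeR adjusted p = 9.59e-05), and its DUS1L change of 0.65 did not pass the test (edgeR adjusted p = 0.514).

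**Figure D3:**
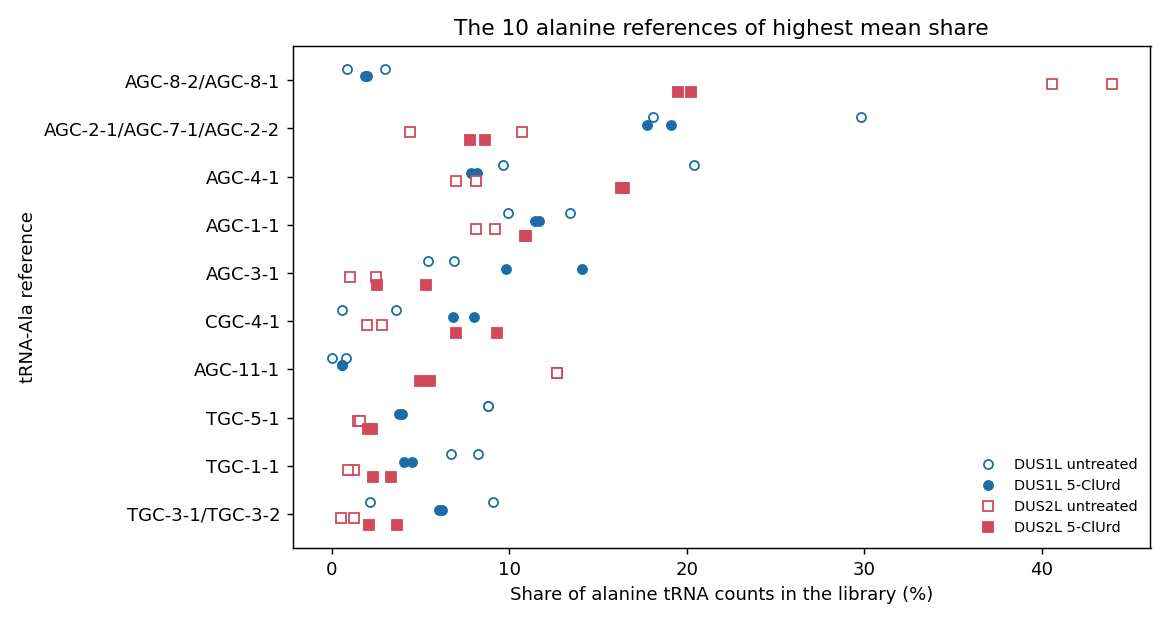
The share of alanine counts (percent, horizontal axis) is plotted for the 10 alanine references of highest mean share in each group; points are libraries. The reference of AGC-8-2 and 8-1 stands far to the right in DUS2L untreated, at a mean of 42.2%, and near 1.93% in the DUS1L groups.

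Positions were also compared between the enzymes within each isoacceptor, a comparison added after the profiles were seen. With 5-ClUrd, 12 of 158 alanine positions were higher and 23 lower in DUS2L than in DUS1L, where 5.04% of all 4424 positions were higher and 8.91% lower. The 23 were 18 AGC, 4 CGC and 1 TGC positions, and those of the D loop among them included AGC positions 15, 17, 18 and 19, CGC positions 15 and 17 and TGC position 17. The 12 were positions 2 of all 3 isoacceptors, AGC positions 36, 37 and 58, CGC positions 10, 36, 42, 43 and 45, and TGC position 43. These calls rested on few libraries: without 1 of the treated libraries between 0 and 4 were higher and between 1 and 4 lower, by the library left out. Scaled to all sense counts, 0 were higher and 92 lower, which includes the lower level of each whole isoacceptor in treated DUS2L libraries. The share over all positions under that scaling is not given here, so the 92 are no result about positions.

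Position 17 was called lower in DUS2L for all 3 isoacceptors with all 8 libraries. CGC position 17 had 12 and 0 counts in DUS1L untreated, 1853 and 1471 with 5-ClUrd (9.68% and 11.1% of CGC counts), 5 and 2 in DUS2L untreated, and 17 and 12 with 5-ClUrd (1.17% and 0.739%). Between the treated groups it differed by -3.44 ± 0.76 (log2 within the isoacceptor, edgeR adjusted p = 0.000717), AGC position 17 by -2.66 ± 0.61 (edgeR adjusted p = 0.00113) and TGC position 17 by -2.72 ± 0.70 (edgeR adjusted p = 0.0039). Position 18 did not pass the test for CGC (0.59 ± 0.75, edgeR adjusted p = 0.645) or TGC (0.42 ± 0.72, edgeR adjusted p = 0.749). When 1 treated library was left out, the adjusted p at position 17 lay between 0.0484 and 0.189 for AGC, between 0.0453 and 0.0981 for CGC and between 0.092 and 0.134 for TGC. AGC position 18 was lower in DUS2L (-1.89 ± 0.65, edgeR adjusted p = 0.0359).

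As a description, positions 16 and 18 together held 23.7% and 22.8% of the CGC counts at positions 15 to 18 in treated DUS1L libraries and 74.7% and 77.0% in treated DUS2L libraries. For TGC the shares were 25.5% and 25.3% against 74.6% and 69.3%, and for AGC 38.7% and 32.6% against 46.5% and 55.0%. The treated DUS2L values rest on 198 and 278 CGC counts, 213 and 264 TGC counts, and 346 and 258 AGC counts. The treated enzymes did not overlap for any of the 3 isoacceptors.

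The higher positions depended on reference length for AGC. Position 36 was higher in DUS2L with all references (1.39 ± 0.47, log2, edgeR adjusted p = 0.0311) and without the 73 nt ones (1.96 ± 0.48, edgeR adjusted p = 0.00253). AGC position 37 went from 1.89 ± 0.60 (edgeR adjusted p = 0.0221) to -0.26 (edgeR adjusted p = 0.873) without them, position 58 from 2.63 (edgeR adjusted p = 0.00917) to -0.03, and position 2 from 3.23 ± 0.68 (edgeR adjusted p = 0.00044) to 1.61 (edgeR adjusted p = 0.133). Of the 18 lower AGC positions 14 were called without them as well. CGC position 2 (2.48 ± 0.79, edgeR adjusted p = 0.0221) and TGC position 2 (2.87 ± 0.80, edgeR adjusted p = 0.00798), whose isoacceptors have no 73 nt reference in this count, were also higher in DUS2L. In untreated libraries, where DUS2L had at most 567 alanine counts, 6 positions were higher and 4 lower, against 1.42% and 2.44% of all positions, and without the 73 nt references 4 were higher and 1 lower.

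**Figure D4:**
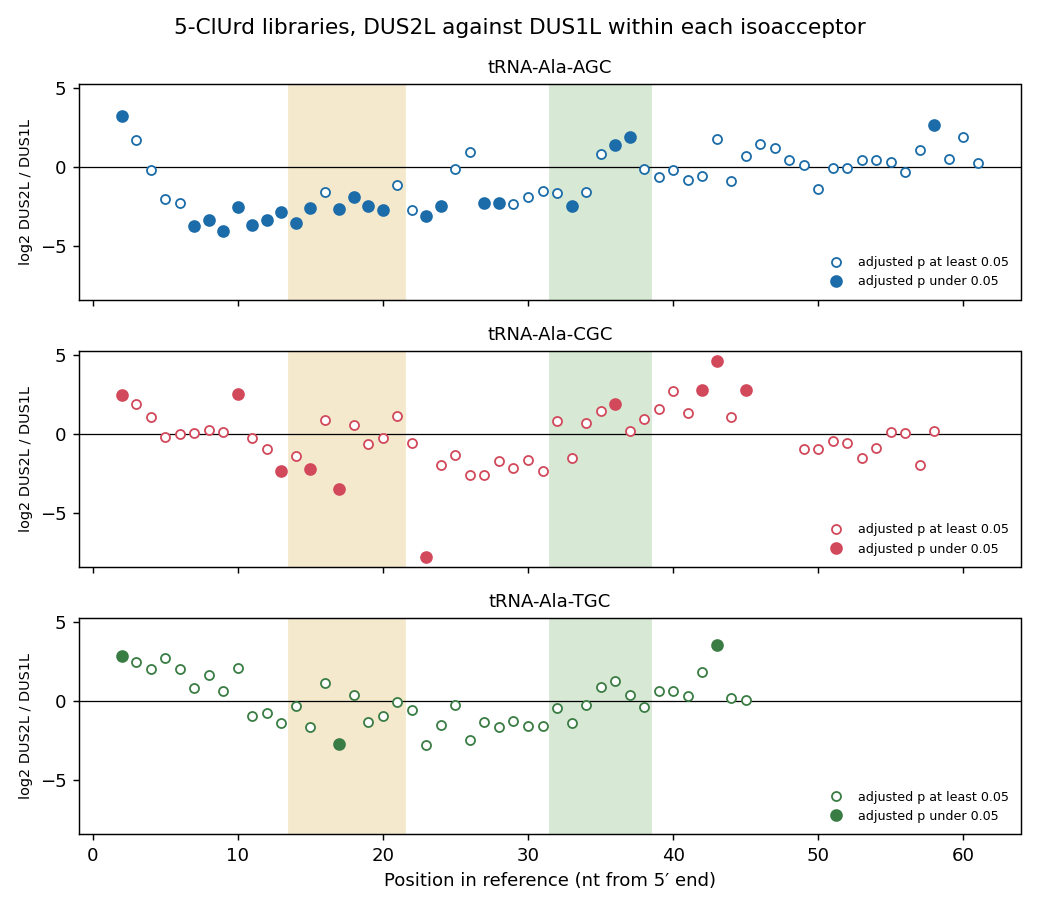
The log2 ratio of treated DUS2L to treated DUS1L counts within each isoacceptor (vertical axis) is plotted by position (nt from the 5′ end), with positions past the adjusted threshold marked. D-loop position 17 lies below 0 in all 3 panels (-2.66 for AGC, -3.44 for CGC, -2.72 for TGC), and position 2 lies above 0 in all 3.

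The deposited peaks, narrow intervals of 2 to 6 nt called by the authors, lay mostly in the same 2 stretches. On alanine references there were 15 and 5 peaks in DUS1L untreated, 22 and 13 with 5-ClUrd, 4 and 7 in DUS2L untreated, and 16 and 19 with 5-ClUrd. They were 11.9% and 13.5% of all peaks in DUS1L untreated but 6.57% and 5.08% with 5-ClUrd, while in DUS2L they were 2% and 3.48% untreated and 7.11% and 6.33% with 5-ClUrd. Those centred on positions 32 to 38 numbered 11, 1, 12, 8, 4, 5, 8 and 12 in that order, and those centred on positions 10 to 25 numbered 4, 2, 8, 3, 0, 1, 5 and 4. Replicates shared 12 peaks with 5-ClUrd in DUS1L (of 22 and 13) and 10 in DUS2L (of 16 and 19), and 1 and 2 in the untreated groups, with an overlap of at least 1 nt. Peak numbers are as deposited and were not scaled for depth.

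Many single sites were high in the treated DUS1L libraries. The highest site of any RNA held between 1061 and 1436 counts in all libraries but replicate 2 of DUS1L untreated (555). It held 1248 in replicate 1 of DUS1L untreated, with 144322 sense counts, and 1269 in replicate 1 of DUS1L with 5-ClUrd, with 824657. Whether an upper limit on site counts lowers the shares of high sites or the DUS1L changes was not tested. The highest alanine site held 1061 and 1021 counts in the treated DUS1L libraries, and the 65 and 41 sites above 500 counts held 50.4% and 38.5% of their alanine counts. In the treated DUS2L libraries 1 site each was above 500, with 5.59% and 5.91% of the counts. No alanine site was above 500 in an untreated library, so leaving such sites out lowers the DUS1L change by construction and is no test of it. Without the sites above 500 counts in any library the DUS1L changes were 0.98 for AGC and 0.93 for CGC, neither of which passed the test, and TGC was at -0.64.

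Over the 8 libraries, the families other than alanine whose log2 shares of the library ran most like those of tRNA-Ala-AGC were tRNA-Thr-CGT (Pearson r = 0.985), tRNA-Tyr-ATA (0.95) and tRNA-Ile-AAT (0.949). For CGC they were tRNA-Thr-CGT (0.995), tRNA-Thr-TGT (0.961) and tRNA-Tyr-ATA (0.961), and for TGC tRNA-Lys-CTT (0.960), tRNA-Thr-CGT (0.955) and tRNA-Tyr-GTA (0.948). Among the alanine isoacceptors r lay between 0.972 and 0.992. These correlations describe 8 libraries in 4 groups that share enzyme and treatment, and carry no test.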

How the data were processed

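The authors deposited, per library, a table of raw counts per single-nucleotide site and strand and a list of peaks whose score is a summed count. STAR 2.7.0f and hg38 are named per the submitters' processing notes; how peaks were called and whether molecular identifiers were used is not given in the sources used here.

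Sense counts were summed to 55 RNA families, to positions within a family and to references. Features with 10 or more counts in the libraries of a fit entered edgeR's quasi-likelihood F test (version 4.0.16, R 4.3.3), with libraries scaled to total sense counts, with Benjamini-Hochberg adjustment over the whole table and a threshold of 0.05; each SE is the log2 change divided by the root of F. Each enzyme's 4 libraries were fitted alone, comparisons across enzymes with all 8. Shares are given as mean ± SD, with exact two-sided permutation tests. Settings tried in turn were scaling by TMM or by size factors, the Wald test of DESeq2 1.42.0, lowest counts of 1 or 50, a block for replicate number, tRNA families alone, both strands, sites above 500 counts left out or set to 500, and each library left out. Scripts were tested on simulated data. Named positions were the 10 of highest mean treated share per enzyme, named references the 6 of highest mean share and the highest of each isoacceptor, and named families the 3 nearest by correlation (prior 0.5 count). Gene coordinates and the printed sequence are from RefSeq. The members and lists were chosen with earlier results of these data known.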

Additional observations from a re-analysis of the deposited data

Results flagged for a closer look

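The share of alanine counts at positions 26 and 27, called the hinge by plain position, moved in opposite directions with 5-ClUrd in the 2 enzymes, in every library. On the printed reference standard number 26 is position 25, outside these 2 positions. It changed by 3.08 percentage points in DUS1L (0.677% and 0.284% untreated, 4.52% and 2.60% with 5-ClUrd) and by -5.2 in DUS2L (8.46% and 8.99% untreated, 5.12% and 1.93% with 5-ClUrd). For tRNA-Ala-AGC alone the changes were 3.33 and -5.46 points. The difference between the enzymes was not tested. Without the 73 nt references, the hinge held 0.113% ± 0.160 and 2.98% ± 1.24 of alanine counts in DUS1L, untreated and with 5-ClUrd, and 0% and 0.642% ± 0.567 in DUS2L, so that the opposite direction was not seen there. The 0% stands for 0 of 184 and 0 of 226 counts, which allow shares of up to 1.63% and 1.33%, counting error only. On the 73 nt references it held 22.2% ± 15.7 and 24.4% ± 4.39 in DUS1L and 15.3% ± 0.453 and 11.8% ± 7.18 in DUS2L.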

How the results depend on the processing

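Depth limits the untreated groups most: replicate 2 of DUS1L untreated had 352 alanine counts and the DUS2L untreated libraries 402 and 567. The DUS2L rises and the lower DUS2L levels of all 3 isoacceptors kept their direction and side of the threshold under every alternative run. In DUS1L, the AGC change was 0.75 with TMM factors, 0.55 with DESeq2 size factors, 0.56 with the Wald test and 0.98 without sites above 500 counts, and lay between 1.5 and 2.11 with single libraries left out. The CGC change under the same settings was 1.71, 1.53, 1.53 and 0.93, and lay between 2.21 and 3.39. None of these 8 values with other scalings or fewer sites passed the threshold. The TGC change reversed to -0.64 without sites above 500 counts, passed the threshold at 1.43 with all 8 libraries in one fit, and lay between 0.83 and 2.31. The difference of effects reversed to -0.28 for AGC with TMM factors. It passed the threshold at 4.17 for CGC without sites above 500 counts and for TGC at 1.97 with the Wald test and 2.23 with both strands. With single libraries left out it lay between 0.61 and 1.22 (AGC), 1.22 and 2.41 (CGC) and 1.34 and 2.82 (TGC). Over all families, with single libraries left out, between 0 and 28 rose in DUS1L.

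Alanine positions that rose in DUS1L numbered 43 with TMM factors, 50 with the Wald test and 9 within the isoacceptor, and between 18 and 100 with single libraries left out. In DUS2L they numbered 1 within the isoacceptor and between 0 and 40 with single libraries left out. References that rose in DUS1L numbered 2 with TMM factors, 1 with the Wald test and between 0 and 17. In DUS2L they numbered 11 with the Wald test and between 13 and 18. The DUS1L change in AGC makeup reversed to 10.8 points without sites above 500 counts and lay between -9.54 and 3.14, and that in TGC makeup reversed to 2.66 with each site counted once. The DUS1L change of the D stem and loop share reversed to -9.02 points with each site counted once and lay between 21.3 and 48.8. The DUS2L change of the 5′ end share reversed to -3.28 points without the 73 nt references and lay between -0.86 and 2.82. Alanine sites above 500 counts lay in treated libraries only, so leaving them out lowers the treated DUS1L values by construction. The cause of the other changes was not tested.

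Replicate numbers are shared between the conditions of an enzyme, and same-numbered libraries deviated together with a correlation of 0.270 (DUS1L) and 0.301 (DUS2L) over 55 families. With only 2 pairs this does not establish a pairing. With the replicate block the changes were 1.80, 2.82 and 1.56 in DUS1L and 2.71, 4.62 and 3.66 in DUS2L (AGC, CGC, TGC), on the same side of the threshold as without it. Rising positions numbered 51 in DUS1L and 46 in DUS2L, rising references 3 and 17, and the treated enzyme comparison had 2 higher and 0 lower positions.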
